A study of Mus musculus with 20 samples.

Results

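Zfp36, Btg2, Dusp1, Ier2, Ier3, Csrnp1 and Myc are immediate early regulators, genes transcribed within minutes of a stimulus whose products limit or redirect the response that follows. They were taken by symbol from the gene counts of mouse gastrocnemius, a calf muscle, and make up 7 of the 53311 rows of the table. All 7 passed the filter on low counts and were among the 13560 genes tested. The study asked how loss of the clock factor BMAL1 in skeletal muscle and a single bout of treadmill running act on muscle RNA. Every sample, controls included, carried Cre and the floxed allele, given in the labels as Cre+:iMSBmal1 fl/fl. Vehicle samples received vehicle and knockout samples the treatment labelled iMSBmal1KO. The agent, the promoter that drives Cre, and the age and sex of the mice were not analysed here. Muscle was collected at zeitgeber time (ZT) 13 either unexercised or 1 h past a treadmill run of 30 min. The groups were resting vehicle, exercised vehicle, resting knockout and exercised knockout muscle, each of 5 samples. The labels do not say that the 5 samples of a group came from 5 animals, so p-values measure the spread between these samples, which may in part be technical.

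Total counts ran from 8045154 to 11269812 per sample, and mitochondrial transcripts took 7.55% to 15.0% of them. Muscle markers were abundant in all 20 libraries. The targeted gene, Arntl, was not lower in the knockout samples. Its level, in counts scaled to library size (CPM), was 12.3 ± 2.39 in vehicle and 14.5 ± 1.94 in knockout at rest, and 14.3 ± 5.71 against 16.4 ± 4.15 after exercise (SD, n = 5 each). The log2 fold change was 0.24 at rest (edgeR adjusted p 0.725) and 0.20 after exercise (adjusted p 0.689). Dbp, a gene that BMAL1 activates, was lower in both states, with log2 fold changes of -2.66 and -2.39 (edgeR adjusted p 2.80e-14 and 2.62e-13). The samples are therefore called knockout-labelled, and every genotype direction rests on the labels.

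Immediate early genes need no new protein synthesis for their induction, because transcription factors already present in the cell, such as CREB and the serum response factor, act on their promoters. Many of their products close a loop. ZFP36 binds AU-rich elements at the 3' end of mRNAs and recruits the CCR4-NOT deadenylase, BTG2 binds the same deadenylase, and DUSP1 removes phosphates from the MAP kinases that induce it. IER2, IER3 and CSRNP1 are early-response proteins of the nucleus or of stress signalling, and MYC is a transcription factor that drives growth genes with its partner MAX. In skeletal muscle such genes are known to respond to contraction, and the transcripts decay quickly once the stimulus ends.

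The promoters are shown first because the members differ in which stimulus-responsive motif lies close to the start of transcription. Windows run from 250 bases before to 50 bases after the start, 5' to 3' on the gene's strand, from RefSeq on mouse build GRCm38.p6, and capitals mark the motif matches named here. Btg2 (chr1:134079106-134079405, minus strand) and Dusp1 (chr17:26508423-26508722, minus strand) hold the full cAMP response element, TGACGTCA. Csrnp1 (chr9:119982974-119983273, minus strand) is shown with the window, of its 4, that holds AP-1 sites. Zfp36 (chr7:28379179-28379478, minus strand) holds a CArG box, the element read by the serum response factor. Ier3 (chr17:35821463-35821762, plus strand) holds a match to the NF-kB site.
Btg2: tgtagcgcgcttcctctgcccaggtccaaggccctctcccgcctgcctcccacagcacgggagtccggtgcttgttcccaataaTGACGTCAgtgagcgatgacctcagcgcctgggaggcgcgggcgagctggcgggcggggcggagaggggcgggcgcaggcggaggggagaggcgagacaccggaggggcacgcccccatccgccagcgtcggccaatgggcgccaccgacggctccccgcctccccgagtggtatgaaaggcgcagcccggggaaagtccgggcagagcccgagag
Dusp1: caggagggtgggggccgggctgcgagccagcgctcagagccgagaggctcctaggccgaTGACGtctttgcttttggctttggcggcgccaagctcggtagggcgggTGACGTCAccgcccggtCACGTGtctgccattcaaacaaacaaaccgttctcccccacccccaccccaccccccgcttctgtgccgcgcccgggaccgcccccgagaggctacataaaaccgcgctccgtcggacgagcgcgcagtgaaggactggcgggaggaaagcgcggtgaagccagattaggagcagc
Csrnp1: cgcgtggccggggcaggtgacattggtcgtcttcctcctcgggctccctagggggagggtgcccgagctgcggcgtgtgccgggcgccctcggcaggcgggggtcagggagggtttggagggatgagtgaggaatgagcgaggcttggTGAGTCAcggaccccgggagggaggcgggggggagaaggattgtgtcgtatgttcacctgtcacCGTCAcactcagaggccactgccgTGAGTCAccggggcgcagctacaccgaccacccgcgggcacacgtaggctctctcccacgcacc
Zfp36: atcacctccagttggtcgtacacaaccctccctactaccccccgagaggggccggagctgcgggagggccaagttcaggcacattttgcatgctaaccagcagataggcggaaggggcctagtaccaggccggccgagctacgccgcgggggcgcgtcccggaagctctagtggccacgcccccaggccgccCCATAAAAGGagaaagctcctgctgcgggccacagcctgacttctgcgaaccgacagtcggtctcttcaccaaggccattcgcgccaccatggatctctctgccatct
Ier3: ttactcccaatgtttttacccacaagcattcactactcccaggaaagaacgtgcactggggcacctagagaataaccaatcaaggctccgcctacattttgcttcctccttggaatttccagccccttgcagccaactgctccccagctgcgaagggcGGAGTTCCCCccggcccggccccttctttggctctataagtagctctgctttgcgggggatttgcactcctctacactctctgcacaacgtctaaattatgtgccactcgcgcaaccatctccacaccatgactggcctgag

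The search covered both strands of 32817 distinct promoter windows of the same length. The full cAMP response element stands 166 bases before the start in Btg2 and 143 in Dusp1, and 1.79% of all windows hold one. Its half-site, TGACG, which lies within the full element and is therefore also counted there, is found in 20.8% of windows. Dusp1 has a second half-site at 191 bases and an E-box, CACGTG, at 126 bases, a letter sequence that 7.15% of windows hold. All 4 windows of Csrnp1 hold the half-site, and the printed one has the AP-1 site TGACTCA, read on the opposite strand as TGAGTCA, at 102 and at 14 bases. AP-1 sites occur in 5.20% of windows, a share per single window, whereas the printed window of Csrnp1 was picked from 4. The CArG box of Zfp36 stands 58 bases before the start and the NF-kB match of Ier3 stands at 92 bases. These motifs occur in 1.63% and 8.46% of windows. None of the 5 genes holds TATAAA in its windows, against 13.6% of all windows. Ier2 and Myc are not shown. A match describes the letters in the window and not a site shown to be bound.

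The transcripts of 3 members carry the nonamer TTATTTATT at their 3' end, the core of the AU-rich element that ZFP36 binds. They are shown with 10 bases on either side because ZFP36 is itself a member.
Zfp36: tatgacgactTTATTTATTgtattaagat
Csrnp1: cactctgaatTTATTTATTtttttatgtt
Dusp1, first: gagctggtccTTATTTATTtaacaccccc
Dusp1, second: gtttttacctTTATTTATTtttgtgtagg
Zfp36 and Csrnp1 have 1 nonamer each, Dusp1 has 2, and Btg2, Ier2, Ier3 and Myc have 0 in the single GENCODE M21 transcript examined per gene. Of 11437 coding genes tested, 7.10% have at least 1 nonamer and 1.43% have at least 2. The shorter pentamer ATTTA occurs 5 times in Btg2, Ier3 and Csrnp1, 4 times in Dusp1, 3 times in Zfp36, 2 times in Myc and never in Ier2, where the median over the genes tested is 1. The sequence after the stop codon was 2199 bases long in Btg2 and 442 to 1075 bases in the other 6 members.

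Levels per length, CPM per kilobase of transcript, set the members far apart in resting vehicle muscle. Dusp1 had the highest level, at 31.1 CPM per kilobase, followed by Ier3 at 5.81, Btg2 at 4.11, Zfp36 at 2.78, Ier2 at 1.88, Myc at 1.38 and Csrnp1 at 0.864. After exercise in vehicle Btg2 stood at 11.7 and Csrnp1 at 2.73 CPM per kilobase. For all 7 genes, groups that were neighbours in the order of mean levels had overlapping ranges, so the order of neighbours is within the spread of samples. Counts behind these levels ranged from 277 to 766 per library for Dusp1, 57 to 469 for Btg2, 42 to 199 for Zfp36, 12 to 106 for Ier3, 7 to 114 for Csrnp1, 9 to 55 for Myc and 18 to 43 for Ier2. The last 4 therefore carry the larger counting error. In whole muscle, fewer cells of a type and less RNA per cell cannot be told apart.

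**Figure D1:**
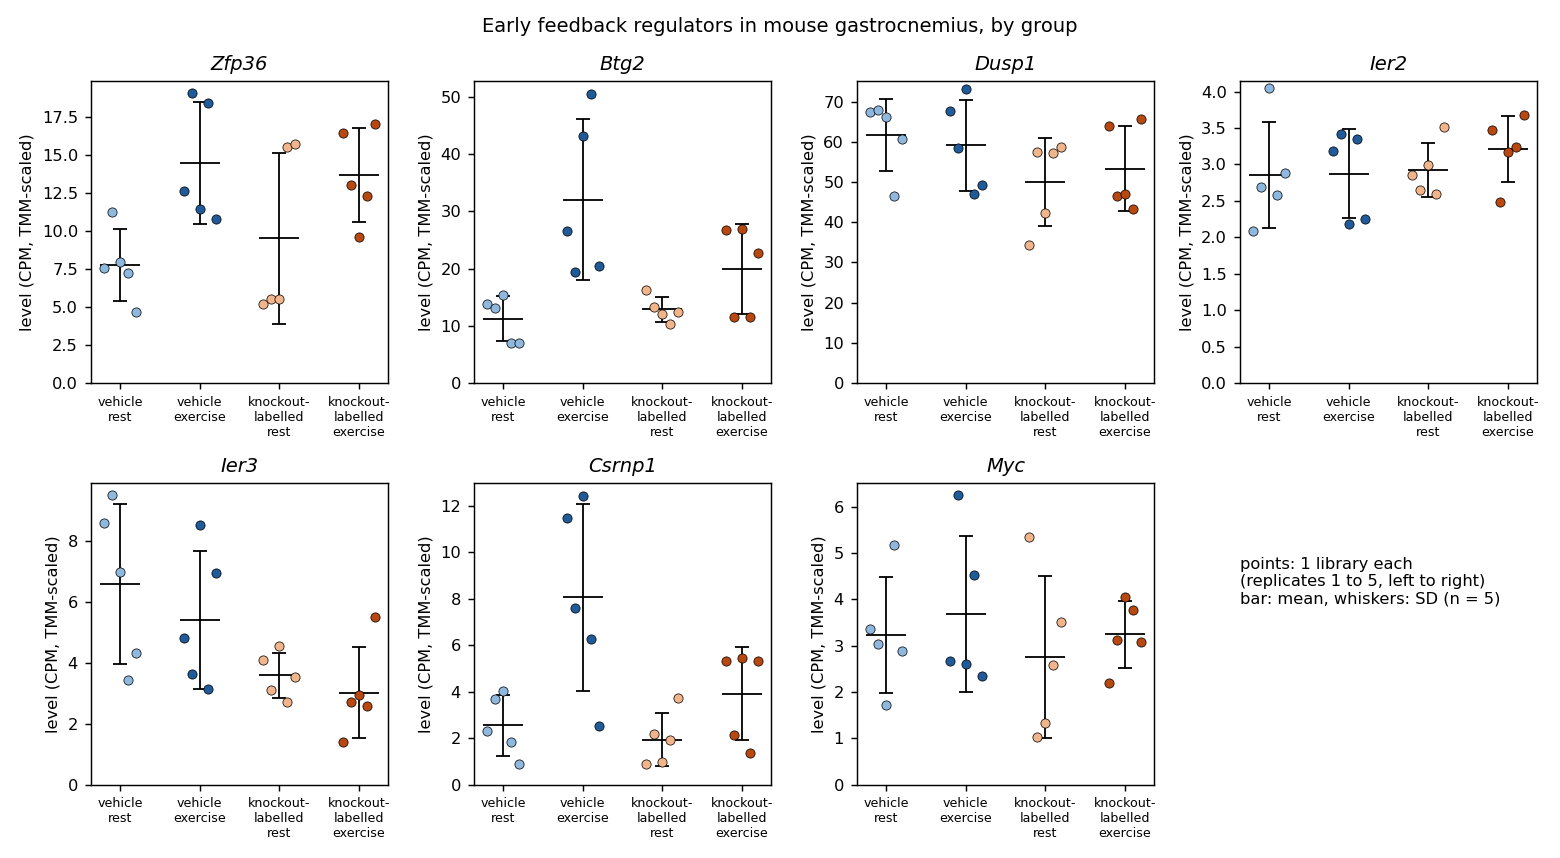
Level of each gene in every library, in CPM on a linear axis from 0, for the 4 groups (points are libraries, the bar is the mean and whiskers are the SD, n = 5). Btg2 in vehicle after exercise runs from 19.5 to 50.6 CPM, above all resting libraries, while Dusp1, Ier2 and Myc overlap in all groups.

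In vehicle muscle, exercise raised Btg2, and it was the member called at an edgeR adjusted p under 0.05 (Benjamini-Hochberg over all 13560 genes). That is 1 of 7 members, where 0.804% of all genes tested were called, and 0.605% called higher. At an unadjusted p under 0.05 there were 3 members, Btg2, Csrnp1 and Zfp36, beside 8.92% of all genes. Csrnp1 and Zfp36 had positive fitted changes that did not pass. Dusp1, Ier2, Ier3 and Myc had fitted log2 changes between -0.29 and 0.18.

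Btg2, an antiproliferative protein that brings the CCR4-NOT deadenylase to mRNA, had levels of 13.8, 13.2, 15.3, 7.01 and 6.995 CPM in the 5 resting vehicle libraries. After exercise they were 26.6, 19.5, 43.2, 50.6 and 20.5 CPM. The lowest exercised library lay above the highest resting one. Ranges were separated in this direction for 1.18% of all genes tested. Group means were 11.3 ± 3.97 and 32.1 ± 14.04 CPM (SD, n = 5), a log2 fold change of 1.50 (SE 0.32, 95% interval 0.83 to 2.18, edgeR adjusted p 0.0336). The call depended on single libraries. Of 10 fits with 1 library of the pair removed, 6 lost it, with adjusted p-values reaching 0.107 (resting vehicle replicate 4 or 5 removed), while the log2 fold change stayed between 1.28 and 1.64. The other libraries whose absence ended the call were vehicle at rest replicates 1 (0.0704) and 2 (0.0775) and vehicle after exercise replicates 3 (0.0946) and 4 (0.103). It was also lost with scaling by library size only (adjusted p 0.0677), with no filter on low counts (0.0769), with limma-voom (0.0579) and with only both groups in the model (0.139).

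Csrnp1, a nuclear protein named for its cysteine- and serine-rich region, had resting vehicle levels of 2.32, 3.67, 4.05, 1.85 and 0.888 CPM. After exercise it stood at 11.5, 7.62, 12.4, 6.26 and 2.53 CPM. Replicates 1 to 4 lay above every resting library and replicate 5 lay among them. The means were 2.55 ± 1.30 and 8.06 ± 4.03 CPM, a log2 fold change of 1.64 (SE 0.47, 95% interval 0.66 to 2.62) that was larger than that of Btg2 but did not pass (edgeR adjusted p 0.148). It passed with DESeq2 (adjusted p 0.0227) and without vehicle after exercise replicate 5 (log2 fold change 1.87, edgeR adjusted p 0.0370).

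Zfp36, the mRNA-decay factor itself, stood at 7.54, 11.3, 7.97, 7.26 and 4.66 CPM at rest in vehicle. The exercised vehicle libraries had 12.6, 19.1, 11.4, 18.4 and 10.8 CPM. All but replicate 5 lay above the highest resting library. The change from 7.74 ± 2.36 to 14.5 ± 3.99 CPM gave a log2 fold change of 0.89 (SE 0.32, 95% interval 0.22 to 1.56) and did not pass (edgeR adjusted p 0.331). An exon of Zfp36 overlaps the antisense gene Gm44710, which had 40 to 103 counts per library and a log2 fold change of 0.07 in the same comparison (edgeR adjusted p 0.973). Whether the counting used strand is not given in the sources used here, so reads of both genes may be mixed.

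The other 4 genes had overlapping ranges at rest and after exercise in vehicle. Dusp1, the phosphatase of nuclear MAP kinases, stood at 67.5, 68.0, 66.1, 46.5 and 60.8 CPM at rest and at 67.8, 58.4, 73.2, 46.9 and 49.3 CPM after exercise. Its log2 fold change was -0.06 (SE 0.16, edgeR adjusted p 0.972), with a 95% interval from -0.40 to 0.27. Ier2 ranged from 2.09 to 4.05 CPM at rest and from 2.18 to 3.41 CPM after exercise (log2 fold change 0.01, 95% interval -0.42 to 0.43). Myc ranged from 1.72 to 5.17 and from 2.34 to 6.26 CPM (log2 fold change 0.18, 95% interval -0.57 to 0.93). Ier3 ranged from 3.44 to 9.50 and from 3.13 to 8.50 CPM (log2 fold change -0.29, 95% interval -0.94 to 0.37). These intervals hold the changes compatible with the data and are not limits of detection. Zfp36, whose interval lies above 0, did not pass either. Over the 7 members, 5 fitted changes were positive and 2 negative, with a median log2 fold change of 0.18, beside 0.00 over all genes tested.

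Tissue composition differed between libraries. The slow-fibre score, the mean log2 CPM of 8 genes of slow muscle fibres, ran from 2.65 to 8.05 in resting and from 0.0996 to 8.002 in exercised vehicle libraries, and from 4.56 to 8.64 and 0.869 to 7.92 in knockout-labelled ones. The summed level of the 8 genes ran from 93.1 to 2673 CPM in resting vehicle, 48.4 to 2616 in exercised vehicle, 246 to 3924 in resting and 62.1 to 2597 in exercised knockout-labelled libraries. None of the 8 (0 of 8) was called in any comparison, and all were detected in each group. Vehicle at rest replicate 5, with the lowest score of its group, also had the lowest Btg2, Csrnp1 and Zfp36 of that group, although Btg2 was nearly as low in replicate 4, whose score was 6.04. The highest Btg2 value came from a library with a score of 2.87. With the score as a covariate, the log2 fold change in vehicle was 1.69 for Btg2 (edgeR adjusted p 0.00474) and 1.87 for Csrnp1 (adjusted p 0.0234). Exercised vehicle replicates 3 and 4, which had the highest Btg2, also had the highest summed nerve markers of all libraries, 64.5 and 97.6 CPM. Replicates 1, 2 and 5 had 18.8, 11.0 and 34.5 CPM, and resting vehicle 21.0 to 29.4 CPM. Replicate 4 also had the highest summed blood (366 CPM) and fat-cell (88.8 CPM) markers. The part of these markers in the Btg2 change was not tested.

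**Figure D2:**
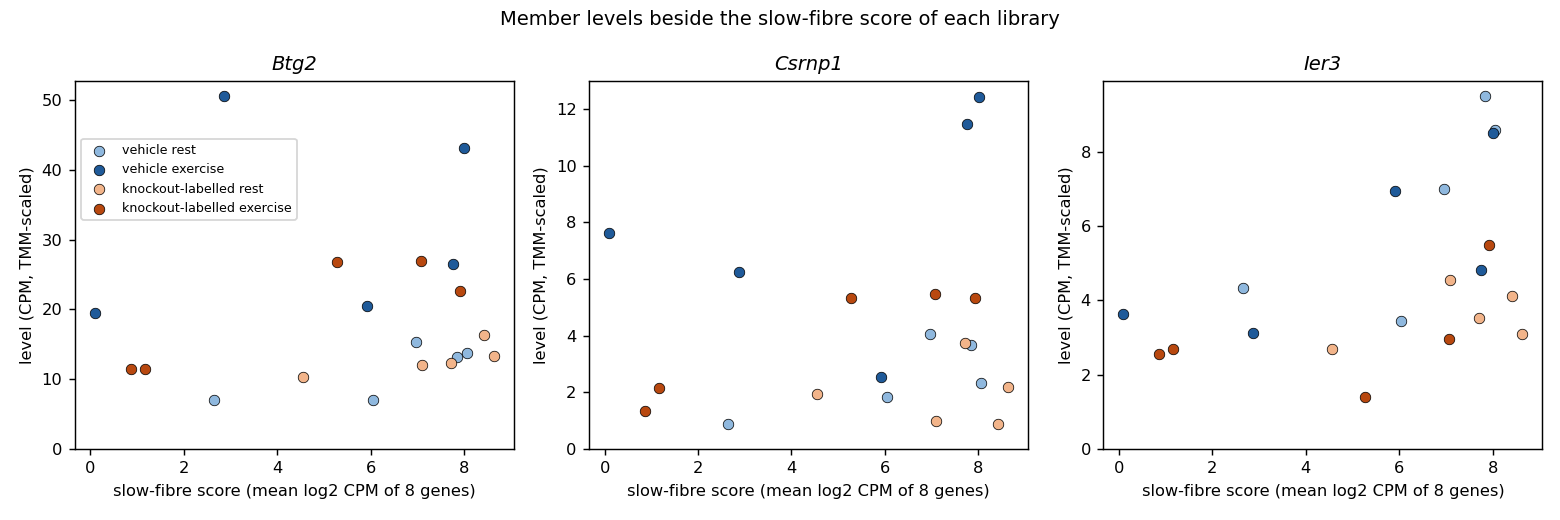
Levels of Btg2, Csrnp1 and Ier3 in CPM (linear axes from 0) against the slow-fibre score of the same library, the mean log2 CPM of 8 genes (1 point per library, 20 libraries, colours by group). Exercised knockout-labelled replicates 2 and 4, with scores of 1.16 and 0.869, have the lowest Btg2 of their group, 11.4 and 11.5 CPM. Exercised vehicle replicates 2 and 4, with scores of 0.0996 and 2.87, have 19.5 and 50.6 CPM.

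In knockout-labelled muscle no member was called after exercise, 0 of 7, and 0.00% of all genes tested were called. At an unadjusted p under 0.05 there were 0 members and 639 genes (4.71%), and DESeq2 and limma-voom also called 0 genes. The same 3 genes had the highest fitted values.

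Btg2 stood at 16.3, 13.3, 12.1, 10.4 and 12.4 CPM in resting knockout-labelled libraries and at 26.7, 11.4, 26.9, 11.5 and 22.7 CPM after exercise. Exercised replicates 1, 3 and 5 lay above every resting library, and replicates 2 and 4 lay inside the resting range. The means, 12.9 ± 2.19 and 19.9 ± 7.85 CPM, gave a log2 fold change of 0.63 (SE 0.32, 95% interval -0.05 to 1.31, edgeR adjusted p 0.9995). Csrnp1 had 0.870, 2.18, 0.996, 1.94 and 3.73 CPM at rest and 5.32, 2.16, 5.47, 1.35 and 5.31 CPM after exercise. The same replicates, 2 and 4, remained at resting levels, and they were also the exercised libraries of this genotype with the lowest slow-fibre scores. With the score as a covariate, the log2 fold change was 0.89 for Btg2 and 1.32 for Csrnp1, and neither passed (edgeR adjusted p 0.339 and 0.344). Without it, Csrnp1 had a log2 fold change of 1.01 (SE 0.50, 95% interval -0.04 to 2.06). In exercised vehicle muscle, replicates 2 and 4 also had the lowest scores of their group, 0.0996 and 2.87. Their Btg2 (19.5 and 50.6 CPM) and Csrnp1 (7.62 and 6.26 CPM) lay above every resting vehicle library. The part of the score in these levels was not tested.

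Zfp36 split the resting knockout-labelled libraries, with 5.22, 5.52 and 5.53 CPM in replicates 1 to 3 and 15.5 and 15.8 CPM in replicates 4 and 5. After exercise it stood at 16.4, 13.1, 9.63, 12.3 and 17.1 CPM, so that all exercised libraries lay between or above the resting clusters. The log2 fold change was 0.52 (SE 0.32, 95% interval -0.14 to 1.18). Dusp1 ranged from 34.4 to 58.7 CPM at rest and from 43.3 to 65.6 CPM after exercise. Ier2, Ier3 and Myc overlapped as well, and with Dusp1 their fitted log2 changes lay between -0.22 and 0.24.

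The difference between both exercise responses was tested as the interaction. It called 0 of 7 members, and 0.00% of all genes. At an unadjusted p under 0.05 there were 0 members and 791 genes (5.83%). DESeq2 called 3 genes and limma-voom 0, none of them a member. Btg2 had a log2 difference of -0.87 (SE 0.46, 95% interval -1.83 to 0.08, edgeR adjusted p 0.871), the lowest among the members. The interval includes 0, and a call of Btg2 in vehicle and not in knockout-labelled muscle does not show that the responses differ. Csrnp1 (-0.63, SE 0.69) and Zfp36 (-0.37, SE 0.45) also had negative differences that did not pass. Dusp1, Ier2, Ier3 and Myc had differences from 0.06 to 0.16.

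Averaged over both genotypes, a contrast added after the data were seen, Btg2 had a log2 exercise change of 1.07 (SE 0.23, edgeR adjusted p 0.0389) and was again 1 of 7 members called, against 0.634% of all genes. Csrnp1 (1.33, SE 0.34, adjusted p 0.102) and Zfp36 (0.70, SE 0.23, adjusted p 0.236) did not pass. This average shares its samples with both single comparisons. The call was kept in 7 of the 20 fits without 1 library, those without vehicle at rest replicate 3, vehicle after exercise replicates 1, 2 and 5, knockout at rest replicate 1 and knockout after exercise replicates 2 and 4, and was lost without any of the other libraries. The adjusted p ran from 0.0231 to 0.0913 over all 20 fits. The call was also lost with library size only (0.0710), no filter (0.0806), limma-voom (0.0797) and the replicate number as a block (0.0576).

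**Figure D3:**
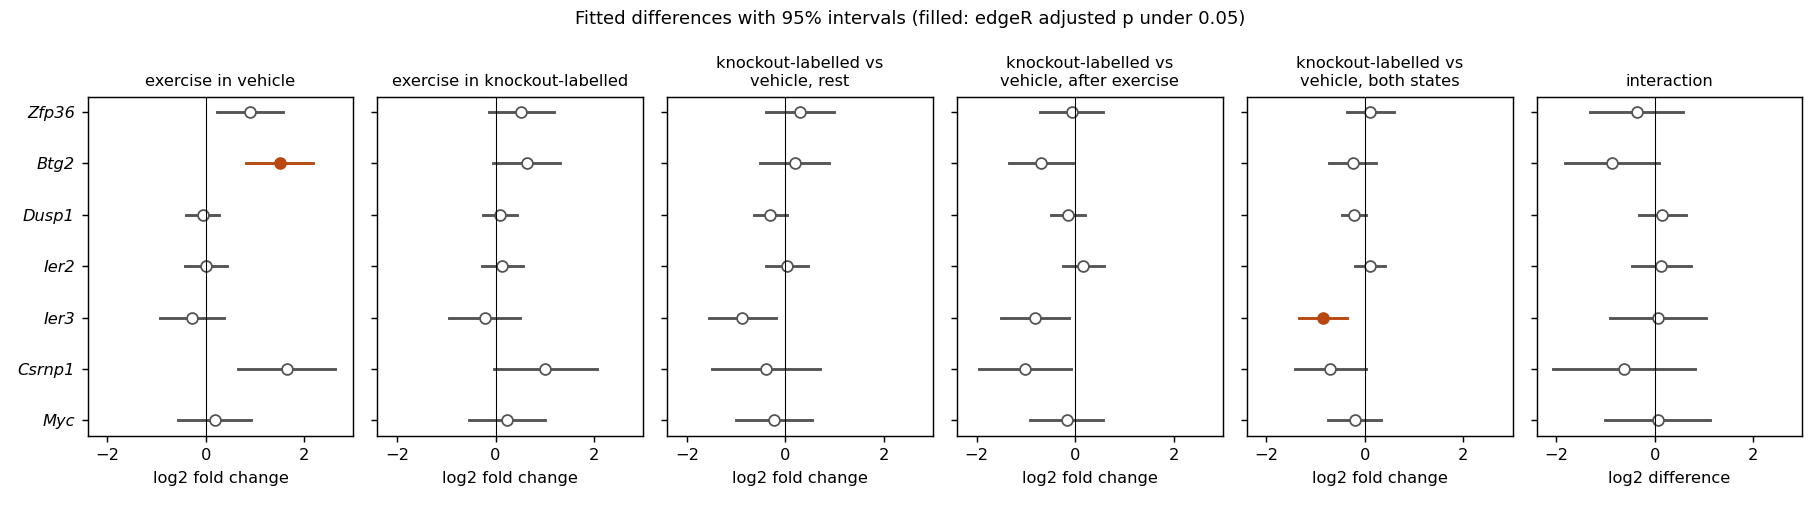
Fitted log2 fold change of each gene with its 95% interval in 6 comparisons, the last being the interaction (filled points passed at an edgeR adjusted p under 0.05). Btg2 is filled for exercise in vehicle at 1.50, and Ier3 for knockout-labelled against vehicle over both states at -0.85.

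Between genotypes, Ier3 had lower fitted levels in knockout-labelled muscle in both states, and passed the test when both were averaged. No member was called at rest, 0 of 7 where 3.86% of all genes were called, or after exercise, 0 of 7 where 6.42% were. At an unadjusted p under 0.05 there were 1 member at rest, Ier3, beside 14.6% of all genes, and 3 after exercise, Ier3, Csrnp1 and Btg2, beside 19.4%. Over both states, a contrast added after the data were seen, Ier3 fell and was 1 of 7 members called, where 11.0% of all genes were called, and 5.78% were called lower.

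IER3 is an early-response protein of survival and stress signalling. Resting vehicle libraries had 8.58, 9.50, 6.99, 3.44 and 4.33 CPM of Ier3, and resting knockout-labelled ones 4.10, 3.10, 4.54, 2.696 and 3.51 CPM. Vehicle replicates 1 to 3 lay above all knockout-labelled libraries, and replicates 4 and 5 lay among them. After exercise the levels were 4.82, 3.64, 8.50, 3.13 and 6.93 CPM in vehicle and 1.39, 2.699, 2.95, 2.56 and 5.48 CPM with the knockout label. Here 3 vehicle libraries lay inside the knockout-labelled range. At rest the log2 fold change was -0.88 (SE 0.33, edgeR adjusted p 0.173), and with exercise -0.81 (SE 0.33, edgeR adjusted p 0.169). Neither passed. Over both states the 10 vehicle libraries averaged 5.99 ± 2.39 CPM and the 10 knockout-labelled ones 3.30 ± 1.16 CPM, a log2 fold change of -0.85 (SE 0.23, 95% interval -1.33 to -0.36, edgeR adjusted p 0.0200). The ranges overlapped, 3.13 to 9.50 against 1.39 to 5.48 CPM. The call held in all 20 fits without 1 library (adjusted p 0.00295 to 0.0405) and in the 8 other settings (0.00130 to 0.0390), among them the fit with the slow-fibre score (log2 fold change -0.86). With that score the difference at rest also passed (log2 fold change -0.98, adjusted p 0.0171), and without knockout after exercise replicate 5 the difference after exercise passed (-1.18, adjusted p 0.0370).

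At rest the log2 genotype differences were 0.19 for Btg2 and -0.39 for Csrnp1, and neither passed (edgeR adjusted p 0.861 and 0.815). Both genes had lower fitted levels in knockout-labelled muscle after exercise. Exercised vehicle muscle had 32.1 ± 14.04 CPM of Btg2 and the knockout-labelled 19.9 ± 7.85 CPM (log2 fold change -0.68, SE 0.31, edgeR adjusted p 0.233). For Csrnp1 the values were 8.06 ± 4.03 and 3.92 ± 2.00 CPM (log2 fold change -1.01, SE 0.45, edgeR adjusted p 0.212). The ranges overlapped for both genes, and neither difference passed. Zfp36 had log2 genotype differences of 0.30 at rest and -0.07 after exercise.

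At rest, Dusp1 averaged 61.8 ± 9.004 CPM under vehicle and 50.02 ± 10.98 CPM in the knockout-labelled libraries, with log2 differences of -0.30 (SE 0.16, edgeR adjusted p 0.410) in that state and -0.15 after exercise. Its exons overlap the opposite-strand gene Ergic1, which had 194 to 375 counts per library and was itself lower at rest (log2 fold change -0.38, adjusted p 0.0325). Reads of that gene could thus enter the Dusp1 count, and their part in its value was not tested. An exon of Csrnp1 overlaps 1700019L13Rik, which was not analysed here. Ier2 and Myc had log2 differences between -0.23 and 0.17 in both states.

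Relatives and partners of the members were taken from 9 lists. Beside them, 3.86% of all genes tested were called between genotypes at rest, 6.42% after exercise and 11.0% over both states. With exercise in vehicle 0.804% were called. In the decay machinery, all 22 CCR4-NOT and related decay factors were tested and 0 were called in any of the 5 planned comparisons, with a median log2 change of 0.00 with exercise in vehicle. Of the 6 relatives of ZFP36 and BTG2, Btg1 was lower in knockout-labelled muscle after exercise. It encodes the closest paralogue of BTG2 and averaged 14.2 ± 2.45 against 9.85 ± 1.96 CPM (log2 fold change -0.52, edgeR adjusted p 0.0232). This call was lost without vehicle after exercise replicate 2 (0.0808) or knockout after exercise replicate 1 (0.0672) or 4 (0.0650), and with only both groups in the model (0.0834). At rest Btg1 averaged 9.69 ± 1.07 CPM in vehicle and 10.5 ± 0.99 CPM with the knockout label. Its change with exercise in vehicle did not pass (log2 fold change 0.56, edgeR adjusted p 0.060). Tnf, Il6 and 6 other transcripts known to be controlled by ZFP36 were too low to test, and the single one tested, Vegfa, was not called.

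Among 7 tested MAPK phosphatases, the family of DUSP1, 0 were called in the planned comparisons. In the added contrast of genotypes over both states 2 were called, where 11.0% of all genes were. Dusp5, an ERK phosphatase with 0 to 21 counts per library, was higher with the knockout label (log2 fold change 1.41, SE 0.37, edgeR adjusted p 0.0139). Dusp7, another ERK phosphatase, was lower (-0.52, SE 0.15, adjusted p 0.0236), a call lost with library size only (0.0542) and with no filter (0.0592). Of 10 MAP kinases and their MK2-type partners, 0 were called for exercise in either genotype. Between genotypes after exercise 2 were called, where 6.42% of all genes were. Mapk8, which encodes JNK1, a substrate of DUSP1, was higher in knockout-labelled muscle (28.5 ± 3.80 against 21.9 ± 1.90 CPM, log2 fold change 0.38, edgeR adjusted p 0.0187). Mapkapk3, whose kinase can phosphorylate ZFP36, was lower (35.1 ± 1.18 against 47.0 ± 1.82 CPM, log2 fold change -0.42, adjusted p 0.0108). The Mapk8 call was lost in 4 of 10 fits without 1 library, vehicle after exercise replicate 1 (0.0601) or 4 (0.0568) and knockout after exercise replicate 1 (0.0629) or 4 (0.0627), and also with only both groups in the model (0.0630). That of Mapkapk3 was lost in none of these (0 of 10). Over both states both genes were called, Mapk8 at 0.33 (edgeR adjusted p 0.00241) and Mapkapk3 at -0.35 (adjusted p 0.00146). These calls held in all 20 fits without 1 library.

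Of 3 tested IER and CSRNP relatives, 1 was called between genotypes after exercise, beside 6.42% of all genes. It was Ier5, a relative of Ier2. After exercise its libraries ranged from 16.8 to 26.7 CPM in vehicle and from 2.02 to 11.3 CPM in knockout-labelled muscle. The ranges did not overlap, as was the case in this direction for 3.59% of all genes. The log2 fold change was -1.30 (SE 0.29, edgeR adjusted p 0.00817), lost when only both groups were fitted (0.0634). At rest the means were 12.4 ± 1.30 and 8.11 ± 2.61 CPM and the difference did not pass (log2 fold change -0.63, adjusted p 0.332). Over both states Ier5 was called (-0.96, edgeR adjusted p 0.00359), also in all 20 fits without 1 library.

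In the MYC network, 9 tested genes included Mnt and Mxi1, both encoding proteins that bind MAX and repress MYC targets, and both were lower with the knockout label after exercise. Mnt stood at 19.2 ± 4.90 against 10.99 ± 2.94 CPM (log2 fold change -0.80, edgeR adjusted p 0.0110). Mxi1 was lower at rest (-0.38, adjusted p 0.0257) and after exercise (-0.33, adjusted p 0.0418). The Mxi1 calls were lost without 1 library in 4 of 10 fits at rest (vehicle replicate 3 and knockout replicates 1, 3 and 4, adjusted p up to 0.0759) and in 6 of 10 after exercise (vehicle replicates 1, 3 and 5 and knockout replicates 2, 3 and 4, up to 0.113). Scaling by library size only ended both calls (0.107 at rest and 0.167 after exercise), and the one after exercise was also lost with no filter (0.0614) and with only both groups (0.142). Over both states Mnt (-0.57, edgeR adjusted p 0.00647) and Mxi1 (-0.36, adjusted p 0.00101) were called, also in all 20 fits without 1 library. Max, the shared partner, was called there too, higher with the knockout label (0.31, edgeR adjusted p 0.0126). Of 12 MYC-responsive genes, Odc1 was called in the planned comparisons. It encodes ornithine decarboxylase, the first enzyme of polyamine synthesis, and ranged after exercise from 165 to 379 CPM in the vehicle group and from 48.8 to 91.1 CPM in the other. Its log2 fold change was -1.86 (SE 0.35, edgeR adjusted p 0.00287). At rest the Odc1 means were 178 ± 75.1 CPM in vehicle and 88.9 ± 32.3 CPM with the knockout label, and the difference did not pass. Over both states Odc1 was called (-1.43, edgeR adjusted p 0.000650), also in all 20 fits without 1 library. Over both states Cad, which encodes an enzyme of pyrimidine synthesis, was called too (-0.25, edgeR adjusted p 0.0452), but its call was kept in 7 of the 20 fits without 1 library (those without vehicle at rest replicate 1 or 2, vehicle after exercise replicate 5, knockout at rest replicate 3 or knockout after exercise replicate 2, 3 or 5), with an adjusted p of at most 0.0947 in the others. It was also lost with library size only (0.0845), no filter (0.1055) and limma-voom (0.0553). Myc itself stood at 3.68 ± 1.68 and 3.25 ± 0.718 CPM in exercised vehicle and knockout-labelled muscle.

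Of 14 p53 target genes, the class to which Btg2 belongs, Cdkn1a and Phlda3 were called in the planned comparisons, and Sesn1, which encodes a stress-induced sestrin, was called in addition for genotype over both states (log2 fold change 0.44, edgeR adjusted p 0.0157). Cdkn1a, the cell-cycle inhibitor p21, rose with exercise in vehicle from 6.31 ± 1.09 to 14.6 ± 1.87 CPM (log2 fold change 1.21, SE 0.20, edgeR adjusted p 0.00407). It was higher in knockout-labelled muscle at rest (log2 fold change 3.87) and after exercise (3.05, adjusted p 1.07e-09), in which states Btg2 had log2 differences of 0.19 and -0.68. Phlda3 was lower after exercise (-0.68, adjusted p 0.0287), a call lost without vehicle after exercise replicate 1 (0.0726) or 2 (0.0506) or knockout after exercise replicate 2 (0.0714) or 4 (0.0844), or with no filter on low counts (0.0830). Over both states Phlda3 was called (-0.57, edgeR adjusted p 0.00540), also in all 20 fits without 1 library. None of the genes of these lists (0) was called for exercise in knockout-labelled muscle or in the interaction. Among markers of other cell types, Hba-a2, a haemoglobin gene with a near-identical copy, was the 1 of 5 blood markers called after exercise, lower in knockout-labelled muscle (log2 fold change -1.90, adjusted p 0.0198). The summed blood markers ran from 57.7 to 366 CPM in vehicle and from 48.2 to 139 CPM in knockout-labelled libraries after exercise, and their part in the genotype differences was not tested. Markers of fast fibres, leukocytes, endothelium, fibroblasts, fat, nerve and satellite cells had 0 calls.

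**Figure D4:**
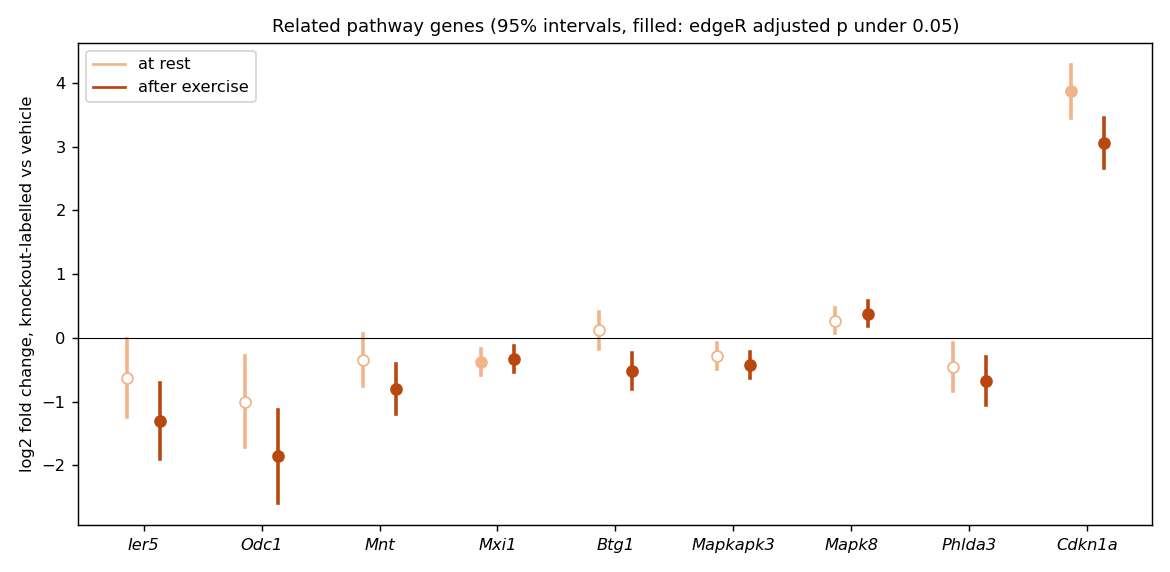
Knockout-labelled against vehicle muscle, log2 fold change at rest and after exercise, for the 9 listed relatives and partners called in either state, with 95% intervals (filled points passed at an edgeR adjusted p under 0.05). After exercise Ier5 is at -1.30 and Odc1 at -1.86, and Cdkn1a is at 3.05.

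Correlations among the members over the 20 libraries differed widely in size. The highest Pearson correlation of log2 CPM between members was 0.77, for Btg2 and Csrnp1, and it was 0.58 after group means were removed. Csrnp1 and Dusp1 had 0.60 over all libraries and 0.73 within groups, although Dusp1 did not follow the exercise groups. Zfp36 and Csrnp1 had 0.65, and the lowest value was -0.35, for Ier2 and Ier3. The points share libraries and groups, and these values are descriptions.

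The genes whose log2 CPM followed each member most closely, among 11722 genes compared over the same 20 libraries, were next listed. Btg2 had the closest ones, Midn (r 0.95), Nfe2l2 (0.93) and Sik1 (0.91). Midn encodes a protein that brings others to the proteasome, Nfe2l2 the oxidative stress factor NRF2 and Sik1 a salt-inducible kinase. With exercise in vehicle they had log2 fold changes of 1.05, 0.91 and 2.77. Since these genes were picked over the same libraries, which hold the exercise difference of Btg2, those changes follow in part from the choice and are given with no test. For Csrnp1 they were Pim3 (0.90), Maff (0.89) and AC160411.1 (0.87). Zfp36 was followed by Ddit4 (0.86), 8430408G22Rik (0.81) and Nfkbia (0.80).

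Ier3 was followed by Dkk2 (0.79), Gm45769 (0.78) and Rell1 (0.77). They were picked over libraries that hold its genotype difference, so no test of that difference is given. The closest genes to Dusp1 were Gm10197 (0.79), Tgfbr2 (0.77) and Nr1i3 (0.76), and those to Myc were Hp (0.79), 1600020E01Rik (0.75) and Zfp862-ps (0.75). Ier2 had the weakest neighbours, Exosc1 (0.70), Naif1 (0.69) and A230087F16Rik (0.66).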

How the data were processed

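The data are RNA sequencing of 20 libraries of mouse gastrocnemius. The authors deposited 1 table of whole-number read counts, with a row for each gene symbol. Per the submitters' processing notes, STAR 2.7.8a, Partek and DESeq2 were used, and the builds mm10 and GRCm39 are named with no role. The counting program, strandedness and annotation are not given in the sources used here. Groups came from the treatment labels and replicate numbers from the titles. The 5 exercised knockout samples are described as trained in 1 label and as acutely exercised in their titles and treatments, and were taken as acute.

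Genes were kept by filterByExpr (minimum count 10), which left 13560 genes with 99.83% of counts, and TMM factors (trimmed mean of M-values) scaled the libraries. The quasi-likelihood model of edgeR 4.0.16 in R 4.3.3 was fitted to all 20 libraries with 1 mean per group. All p-values were adjusted by Benjamini-Hochberg across the 13560 genes, with a threshold of 0.05. Levels are counts scaled to the TMM library size (CPM), and log2 CPM used a prior count of 2. Alternatives used DESeq2 1.42.0, limma 3.58.1 (voom), other scaling and filters, a stricter filter of 30 counts in 5 samples, a slow-fibre covariate and 1 library left out at a time. The scripts were tested on simulated counts.

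The members, the lists and the tests were chosen with earlier results of these data known. The text names all members, Arntl and Dbp as the check of the label, list genes called in any of the 5 planned contrasts (at most 3 per list and contrast), the further list genes called for genotype over both states (chosen after their values were seen), the 3 genes most correlated with each member, and genes that overlap a member or mark another cell type where a value turns on them. The average contrasts over both genotypes and over both states were added after the data were seen. Replicate numbers were not treated as pairs in the main fit, as the closing section details. The closest libraries within each group differed by more than sampling noise (chi-square per degree of freedom from 3.99 upward), so none was treated as a duplicate.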

Additional observations from a re-analysis of the deposited data

How the results depend on the processing

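Limits lie in the low counts of Csrnp1, Ier2, Ier3 and Myc and in the spread between 5 libraries per group. With the replicate number as a block, members called in the planned comparisons stayed at 1 for exercise in vehicle and 0 elsewhere, with 100 and 518 genes called for exercise in vehicle and genotype at rest. The main fit did not pair samples by this number. Deviations of the 30 same-numbered pairs correlated from -0.448 to 0.437 (median 0.0887), and those of 120 other pairs from -0.478 to 0.466 (median -0.0174). Of 20 libraries, 4 correlated best with their own number. These values do not decide whether the numbers pair samples. The block ended the Btg2 call over both genotypes (log2 fold change 1.05, edgeR adjusted p 0.0576), leaving 0 members called there. It also ended the call of Cad for genotype over both states (0.0661). Against 1 member called for exercise in vehicle, 0 were called with library size only, no filter, voom or only both groups, and 2 with DESeq2 or the slow-fibre covariate. The 109 genes called there became 195 with DESeq2, 61 with only both groups and 248 with the covariate. With the covariate, exercise in knockout-labelled muscle had 8 genes called against 0, genotype at rest 1 member against 0 and 850 genes against 523, and genotype after exercise 1419 genes against 870, where only both groups gave 567. The interaction had 3 genes with DESeq2 against 0. For exercise over both genotypes, 0 members were called with library size only, no filter or voom and 2 with DESeq2 or the covariate, against 1. Its 86 genes became 167, 54 and 266 with DESeq2, voom and the covariate. The cause of these shifts was not tested.

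Leaving out 1 library gave 0 to 2 members and 52 to 135 genes for exercise in vehicle (fewest without vehicle at rest replicate 5), 0 members and 0 genes for exercise in knockout-labelled muscle, 0 members and 367 to 464 genes at rest, 0 to 1 members and 642 to 841 genes after exercise, 0 members and 0 to 1 genes for the interaction, 0 to 2 members and 35 to 109 genes for exercise over both genotypes (fewest without vehicle at rest replicate 4), and 1 member and 1282 to 1538 genes for genotype over both states. Over the log2 fold changes of members and named genes, 53 values without 1 library and 22 under other settings lost their call, 3 and 5 gained one, 1164 and 680 stayed on their side of the threshold, and no called value changed sign.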
